A study of Mus musculus with 22 samples.

Results

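The comparison described here asked what loss of LIN9 changed in hearts that already lacked the Hippo pathway gene Sav1. It was set by genotype: from the 12 RNA-seq libraries of the second of 2 experiments, the 3 libraries labelled LIN9 KO and Sav1 KO were compared with the 3 labelled LIN9 wt and Sav1 KO, which makes 6 of the 22 samples of the series and 6 of its 18 RNA-seq libraries. All were heart ventricles of mouse embryos at E13.5 with Nkx2.5-Cre, a Cre recombinase under the control of Nkx2.5 in cardiac progenitors, so cells outside that lineage keep both genes. Both groups had floxed Sav1 on both alleles (exon 3). The LIN9 KO Sav1 KO embryos (double knockouts) also had floxed Lin9 on both alleles (exon 7). The LIN9 wt embryos, though labelled wild-type, are Lin9 fl/+ in the study's text and legends, so that the comparison is between loss of both copies and loss of 1. Only genes whose counts averaged more than 1 in the 12 libraries were tested, which left 17675 of the 48709 genes in the table. The libraries held 2958879 to 2974933 counts in Sav1 KO LIN9 wt and 2840053 to 2906101 in double knockouts, so that 1 count equalled 0.341 CPM, the count scaled to a common library size. RNA was prepared in triplicate. A legend in the study's supplement treats each experiment as a biological replicate with triplicates inside it. Nothing says that the 3 libraries of a group came from separate embryos, so p-values measure the spread between these libraries, which may be technical.

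LIN9 is a subunit of MuvB, a protein complex that sits on the promoters of cell cycle genes. With the pocket proteins and E2F4 it forms the DREAM complex, which holds these genes off in resting cells, and with B-MYB or FOXM1 it activates genes of G2 and mitosis. SAV1 is a scaffold of the Hippo kinases, which keep the coactivator YAP out of the nucleus, and loss of SAV1 in the embryonic heart is known for an overgrowth of cardiomyocytes. LIN54, another MuvB subunit, binds a short promoter element called the cell cycle genes homology region (CHR), with the letters TTTGAA or TTCGAA.

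To show the promoters in question, stretches of 80 bases from RefSeq promoters (GRCm38.p6) of cell cycle genes that fell in double knockouts are given 5′ to 3′ along the gene, all from the minus strand, with the CHR letters in capitals. The first 3 belong to the primer genes described below. They are the only ones that hold the CHR letters among the 11 primer genes with a promoter (27.3%). No match was found for Ccna2, Kif23 or Nusap1, the primer genes that fell most. Cdc20 and Cdk1 were added after their promoters had been seen. In Top2a (chr11:99024190-99024269) the match is on the opposite strand and reads TTCAAA, 23 bases before the start.
Top2a: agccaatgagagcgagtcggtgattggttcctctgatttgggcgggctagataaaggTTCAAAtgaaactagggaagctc
Ect2 (chr3:27153933-27154012, match 114 bases before the start): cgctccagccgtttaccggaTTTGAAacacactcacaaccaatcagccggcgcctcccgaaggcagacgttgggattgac
Gas2l3 (chr10:89443968-89444047, match 8 bases before): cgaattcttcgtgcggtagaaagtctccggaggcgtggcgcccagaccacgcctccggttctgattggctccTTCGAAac
Cdc20 (chr4:118437344-118437423, match 18 bases before): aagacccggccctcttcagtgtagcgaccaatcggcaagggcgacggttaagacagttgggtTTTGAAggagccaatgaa
Cdk1 (chr10:69352913-69352992, nearest of 2 matches 15 bases before): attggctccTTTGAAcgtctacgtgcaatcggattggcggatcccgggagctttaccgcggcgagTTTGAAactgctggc

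Searched on both strands in the 250 bases before the start, the CHR letters TTTGAA or TTCGAA were in 17.1% of the 32851 promoters of the reference. Counted by gene, they were in 15.1% of the 11661 tested genes with a promoter. They stood in 9 of 21 cyclins, mitotic kinases and anaphase regulators (42.9%) and in 9 of 11 condensins and other mitotic chromosome genes (81.8%). Mitotic kinesins held them in 5 of 11 genes (45.5%) and E2F factors in 3 of 6 (50.0%). The shares were lower in cytokinesis (3 of 11, 27.3%), kinetochore (8 of 32, 25.0%) and replication genes (8 of 36, 22.2%). In respiratory complex I they stood in 3 of 31 genes (9.68%). Lists that rose held them as well, in 3 of 6 promoters (50.0%) of fibroblast and cushion markers and in 4 of 10 (40.0%) of erythroid markers. Among genes with at least 5 CPM, the element was in 16.6% of the promoters of genes called lower, in 13.7% of those called higher and in 14.1% of those not called. A match is a description of these letters and not a binding site.

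Expression of Lin9 itself (chr1:180641150-180690694, + strand, ENSMUSG00000058729) was 19.2, 31.4 and 25.6 CPM in the 3 Sav1 KO LIN9 wt libraries and 23.5, 26.04 and 18.5 CPM in the 3 double knockouts (log2 fold change -0.16, SE 0.18, adjusted p = 0.586). Here and below, values stand in the order of libraries 1, 2 and 3, with Sav1 KO LIN9 wt first. The groups overlapped, and adjusted p-values here and below are from the quasi-likelihood test of edgeR with Benjamini-Hochberg adjustment. With wild-type Sav1 the same count was lower in LIN9 KO, at 29.2, 28.1 and 23.2 CPM against 13.1, 15.4 and 17.9 CPM (log2 fold change -0.80, adjusted p = 0.00269). The difference between these effects had an unadjusted p of 0.0233 in edgeR (adjusted p = 0.711). The count covers the whole gene while exon 7 alone is floxed, and in Sav1 KO it does not show the deletion. Sav1, with 25.4% of its exonic bases under other genes, was at 43.05, 36.1 and 42.96 CPM against 43.9, 40.5 and 42.3 CPM (log2 fold change 0.05, SE 0.12, adjusted p = 0.805). Yap1 was at 188, 177 and 173 CPM against 183, 198 and 212 CPM (log2 fold change 0.14, SE 0.11, adjusted p = 0.404). In a principal component analysis of the 6 libraries the first component held 69.6% of the variance and separated the groups. Replicates of double knockouts differed more from each other (chi-square per gene 2.83 to 7.33 between pairs) than those of Sav1 KO LIN9 wt (1.39 to 1.98). Haemoglobin genes took 0.331% to 0.432% of counts in Sav1 KO LIN9 wt, and 3.1%, 1.93% and 1.04% in double knockouts 1, 2 and 3. Rn18s-rs5, a copy of the 18S ribosomal RNA gene, took 0.187% to 0.256% and 0.783% to 1.36%, and the genes that vary with it are described in the closing section.

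Loss of LIN9 changed 4132 of the 17675 genes (23.4%) at an adjusted p under 0.05. Such a gene is named called from here on. Of these, 2078 rose (11.8%) and 2054 fell (11.6%), and these are the shares against which each count of list members stands. Increases were larger: 818 of the 2078 genes that rose (39.4%) and 244 of the 2054 that fell (11.9%) changed more than 2-fold, with a median absolute log2 fold change of 0.84 and 0.56. Genes that rose were more often of few counts: 1744 of them and 1985 of those that fell had at least 5 CPM. The part of expression level in this difference was not tested. In 7263 genes (41.1%) the groups of 3 libraries did not overlap, 3867 higher (21.9%) and 3396 lower (19.2%) in double knockouts. The median over all genes tested was 0.03.

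The plot of 12 key genes shows the size of these changes against the spread of the libraries. Of these genes, Ccna2, Plk1, Cdc20, Ky, Ckm, Mb, Myl2, Tcap and Irx4 fell, and Cdkn1a, Gdf15 and Nppa rose, in each case with no overlap between groups. For Ky, Ckm, Mb and Gdf15 this was a condition of their choice as genes of the largest changes.

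**Figure D1:**
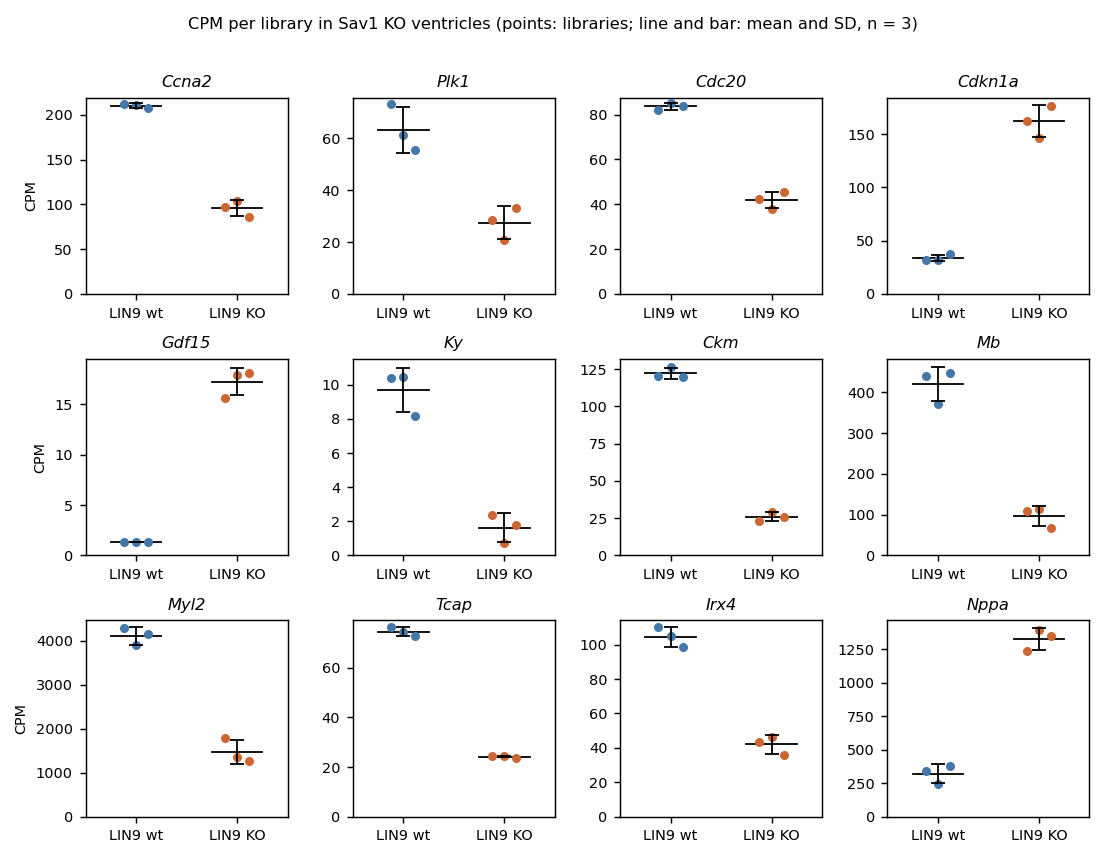
CPM of 12 genes in Sav1 KO LIN9 wt (blue) and double knockout (orange) ventricles. Points are libraries, the line is the mean and the bar the SD of 3 libraries. Each vertical axis starts at 0. In all 12 panels the groups are apart, as for Cdkn1a with 32.3, 32.1 and 37.5 CPM against 162, 147 and 177 CPM. Ky, Ckm, Mb and Gdf15 were chosen among genes whose groups do not overlap.

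The cell types that a dissected ventricle can hold are described first, since in bulk tissue fewer cells of a type and less RNA per cell cannot be told apart. All 5 markers of ventricular cardiomyocytes fell (median log2 fold change -1.15), and their summed level went from 12810 to 14170 CPM in Sav1 KO LIN9 wt to 5366 to 6037 CPM in double knockouts. Markers of other cells rose: 12 of 13 erythroid markers (3340 to 4379 against 10710 to 30860 CPM), 9 of 10 macrophage markers (115.1 to 136.7 against 277.9 to 322.2 CPM), 9 of 10 markers of fibroblasts and cushion mesenchyme (4259 to 4832 against 6780 to 8547 CPM) and 7 of 8 epicardial markers (260.6 to 306.2 against 503.8 to 556.4 CPM). Of the 10 endothelial markers, 6 rose and 1, the VEGF receptor gene Kdr, fell (log2 fold change -0.67, adjusted p = 0.000204), and the sums were 1087 to 1173 and 1237 to 1456 CPM. Of the 6 smooth muscle markers, 2 rose (Mylk 1.17 and Tagln 1.02 on the log2 scale) and 2 fell (Acta2 -0.47 and Smtn -0.30), and the sums overlapped (1763 to 1851 and 1662 to 1866 CPM). Of the exonic bases of Tagln, 67.9% lie under other genes, whose reads may count with it. Of 8 atrial markers, Nppa and Sln rose and 6 were not called (median 0.06). The atrial sum (2743 to 3196 against 3588 to 4103 CPM) includes Nppa, which also stands on the trabecular list. No tested marker had a mean of 0. The part of these cell types in the results that follow was not tested.

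**Figure D2:**
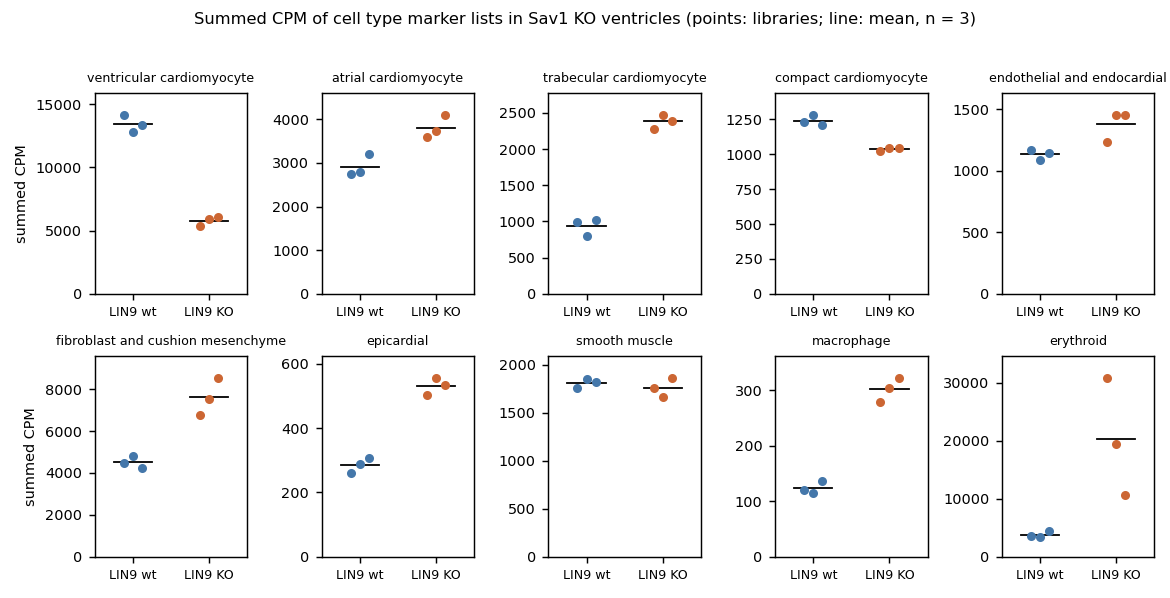
Summed CPM of the markers of 10 cell types in each library, with LIN9 wt in blue and LIN9 KO in orange, all in Sav1 KO ventricles. Points are libraries and lines are means of 3, and all axes start at 0. Sums of ventricular and compact cardiomyocyte markers are lower in all 3 double knockouts, those of smooth muscle markers overlap, and the other 7 sums are higher in all 3. The atrial sum includes Nppa, which is also on the trabecular list, and 6 of the 8 atrial markers were not called (median log2 fold change 0.06).

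The other cell types are seen in single genes as well. Wt1, a transcription factor of the epicardium, was at 36.7, 43.2 and 43.6 CPM in Sav1 KO LIN9 wt and 90.3, 107 and 87.5 CPM in double knockouts (log2 fold change 1.21, SE 0.12, adjusted p = 2.13e-08). C1qb, which encodes a complement subunit made by macrophages, was at 7.40, 8.44 and 8.52 against 28.6, 28.5 and 34.5 CPM (log2 fold change 1.91, SE 0.19, adjusted p = 1.91e-08). Lyz2, the lysozyme of myeloid cells, was at 27.9, 21.3 and 26.6 against 86.2, 69.7 and 76.8 CPM (log2 fold change 1.62, SE 0.14, adjusted p = 1.21e-09). In these 3 genes every double knockout was above every Sav1 KO LIN9 wt library. Pdgfra, a growth factor receptor of mesenchymal cells, rose 2.39-fold (log2 fold change 1.26, adjusted p = 1.55e-09). Tcf21, a transcription factor of epicardium-derived fibroblasts, rose by 1.45 on the log2 scale (adjusted p = 8.66e-07). The collagen genes Col1a2 and Col3a1 rose by 1.04 and 0.93, the epicardial markers Upk1b and Msln by 1.57 and 1.41, and the macrophage markers C1qc and Adgre1 by 1.80 and 1.69. Krt8, an epicardial keratin, was at 3.70, 5.40 and 7.16 against 20.1, 24.99 and 25.2 CPM (edgeR adjusted p = 9.75e-08). The endothelial genes Emcn, Pecam1 and Nfatc1 rose by 0.98, 0.64 and 0.52, and the cardiomyocyte light chain gene Myl3 fell (log2 fold change -1.02, adjusted p = 6.84e-07). The embryonic globin gene Hbb-y was at 865, 769 and 1060.0 CPM against 12258, 7564 and 3906 CPM (log2 fold change 3.14, SE 0.43, adjusted p = 0.000953). The double knockouts differed among themselves by over 3-fold in this gene, in the same order as in the haemoglobin share, although all lay above the other group.

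Among MuvB subunits and the proteins that join them, 1 of 13 genes rose and 4 fell, with a median of -0.16, beside 11.8% higher and 11.6% lower among all genes tested. Foxm1, the mitotic activator, fell from 84.4, 79.6 and 77.4 CPM to 53.5, 52.4 and 61.2 CPM (log2 fold change -0.53, SE 0.12, adjusted p = 0.00147). The pocket protein gene Rbl1 fell from 83.1, 78.6 and 81.5 to 53.5, 52.1 and 52.6 CPM (log2 fold change -0.62, SE 0.11, adjusted p = 7.49e-05). Neither overlapped between groups. The other decreases were those of Rbbp4, a histone-binding subunit (log2 fold change -0.40, adjusted p = 0.00575), and E2f4 (log2 fold change -0.47, adjusted p = 0.0148). Tfdp2, a dimer partner of E2F proteins, rose (log2 fold change 0.42, adjusted p = 0.00777). Mybl2, which encodes B-MYB, was at 25.6, 34.8 and 34.4 against 32.4, 31.7 and 33.4 CPM (log2 fold change 0.04, SE 0.15, adjusted p = 0.88). The call of E2f4 was lost without Sav1 KO LIN9 wt library 3 (adjusted p = 0.108) and without double knockout 2 (0.101), and that of Tfdp2 without Sav1 KO LIN9 wt library 3 (0.0564).

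Of 14 cell cycle genes with RT-qPCR primers, 13 passed the filter, and of these 7 fell and none rose, with a median of -0.43. They had been chosen as targets in the study of these samples, so their direction is not independent evidence. Cyclin A2 gene Ccna2 (chr3:36564865-36572150, - strand, ENSMUSG00000027715) fell most of these, from 212, 211 and 207 CPM to 97.1, 104 and 86.4 CPM. This was 210.1 ± 2.55 against 95.9 ± 8.95 (mean ± SD, n = 3), a 2.19-fold decrease (log2 fold change -1.13, SE 0.10, adjusted p = 3.99e-09). In this and the next 3 genes every double knockout was lower than every library of the other group. Kif23, a kinesin of the central spindle, went from 119, 143 and 139.8 to 67.8, 73.6 and 73.96 CPM (log2 fold change -0.90, SE 0.11, adjusted p = 7.01e-07). Nusap1, a spindle microtubule protein, went from 88.1, 117 and 98.2 to 70.8, 58.4 and 52.3 CPM (log2 fold change -0.74, SE 0.12, adjusted p = 5.4e-05). Top2a, the topoisomerase that untangles chromosomes, went from 516, 555 and 524 to 361, 359.7 and 345 CPM (log2 fold change -0.58, SE 0.11, adjusted p = 0.000383). Smaller decreases were those of Ect2, a regulator of cytokinesis (log2 fold change -0.43, adjusted p = 0.00844), and Gas2l3, a cytoskeletal linker of the midbody (log2 fold change -0.40, adjusted p = 0.0289). Gas2l3 lost its call in DESeq2 (adjusted p = 0.0792), without Sav1 KO LIN9 wt library 1 or 3 (0.107 and 0.0845) and without double knockout 1 or 3 (0.0732 and 0.18), and Ect2 without Sav1 KO LIN9 wt library 3 (0.0538).

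**Figure D3:**
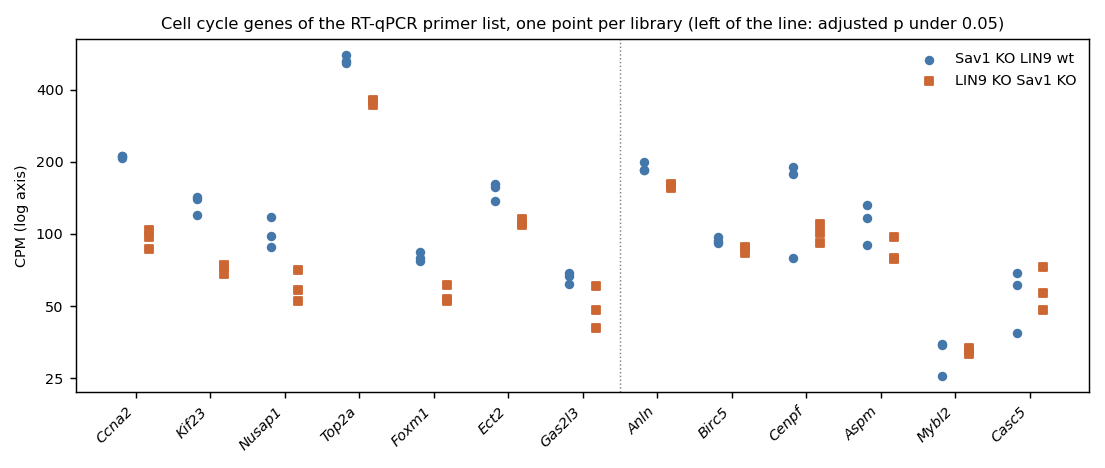
CPM on a log axis of the 13 cell cycle genes, 1 point per library, with Sav1 KO LIN9 wt as blue circles and double knockouts as orange squares. The 7 genes to the left of the dotted line have an adjusted p under 0.05. The circles of Cenpf spread from 79.7 to 191 CPM around the squares.

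The 6 genes that were not called moved less or varied more. Anln, an actin-binding protein of the cleavage furrow, was at 185, 185 and 199.8 CPM against 156, 162 and 159.7 CPM with no overlap (log2 fold change -0.25, SE 0.11, adjusted p = 0.0882). Birc5, which encodes survivin, was at 91.8, 97.2 and 93.1 against 87.9, 83.1 and 87.5 CPM (log2 fold change -0.13, SE 0.10, adjusted p = 0.401), lower in each double knockout as well. Cenpf, a large kinetochore protein, was at 79.7, 178 and 191 CPM against 91.3, 109 and 101 CPM, with 1 Sav1 KO LIN9 wt library below all double knockouts (log2 fold change -0.57, SE 0.65, adjusted p = 0.597). Library 1 was the lowest in both groups, as it was with wild-type Sav1 (23.3, 135 and 146 CPM in LIN9 wt and 20.7, 53.1 and 77.9 CPM in LIN9 KO). Aspm and Casc5 (now Knl1) also overlapped between groups, with log2 fold changes of -0.41 and 0.08 (adjusted p = 0.532 and 0.942). Fitted on the 6 libraries alone, Anln and Aspm had an adjusted p of 0.0351 and 0.00937 (edgeR). With the replicate number as a block in that fit, Cenpf and Aspm were called (log2 fold changes of -0.51 and -0.40, adjusted p = 0.000122 and 0.00362), although the numbers do not pair these libraries.

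Of 27 tested cyclins, mitotic kinases and anaphase regulators, 18 fell and none rose, beside 11.6% and 11.8% of all genes, with a median of -0.49. Among the 9 not called, the checkpoint kinase genes Ttk and Bub1 had positive log2 fold changes (0.64 and 0.33, adjusted p = 0.0684 and 0.363). Plk1, the Polo-like kinase that drives mitotic entry (chr7:122159439-122169873, + strand, ENSMUSG00000030867), was at 72.98, 61.1 and 55.6 CPM against 28.6, 20.8 and 33.1 CPM, a 2.30-fold decrease (log2 fold change -1.20, SE 0.16, adjusted p = 1.9e-06). Ccnb1, a cyclin partner of CDK1, was at 104, 84.7 and 93.8 against 44.96, 42.2 and 44.8 CPM (log2 fold change -1.09, SE 0.11, adjusted p = 3.52e-08). Cdc20, an activator of the anaphase-promoting complex, was at 82.1, 85.04 and 83.9 against 42.2, 38.01 and 45.5 CPM (log2 fold change -0.996, SE 0.12, adjusted p = 8.47e-07). The groups were apart in these 3 genes. Cdk1 itself, with its 2 CHR matches, fell less (log2 fold change -0.33, adjusted p = 0.021), and Ccnb2, another of its cyclin partners, was not called (log2 fold change -0.21, adjusted p = 0.16).

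Further mitotic groups moved less evenly. Of 14 cytokinesis genes, 9 fell and 1 rose (median -0.42). Racgap1, the partner of Kif23 in the centralspindlin complex, went from 171, 173 and 160.2 to 88.2, 83.8 and 103 CPM (log2 fold change -0.88, SE 0.11, adjusted p = 4.48e-07), while the citron kinase gene Cit rose (log2 fold change 0.57, adjusted p = 0.00376). Cdca8, a subunit of the chromosomal passenger complex, fell (log2 fold change -0.79, adjusted p = 3.58e-06). Of 12 mitotic kinesins 4 fell (median -0.22), and of 12 condensins and mitotic chromosome genes 4 fell (median -0.09), of which 9 of 11 promoters hold the CHR letters. Among them Kif20a and Kif4 fell by -0.67 and -0.50, and Ncapd2 and Hmgb2 by -0.71 and -0.62, as log2 fold changes. Other genes lie over 29.3% of the exonic bases of Kif20a. Of 38 kinetochore and checkpoint genes, 6 fell and 2 rose (median -0.06), beside 11.6% lower and 11.8% higher among all genes. Counts this small are not read as a shift of the list. Cenpa, the centromeric histone, and Pmf1 had log2 fold changes of -0.73 and -0.67 (adjusted p = 3.74e-06 and 0.000221). At the centromere, Cenpm went from 24.2, 25.3 and 27.96 to 9.88, 10.6 and 12.1 CPM (log2 fold change -1.25, SE 0.20, adjusted p = 2.4e-05). Cenph moved in the opposite direction, from 18.2, 25.6 and 27.3 to 57.9, 42.2 and 41.2 CPM (log2 fold change 0.99, SE 0.16, adjusted p = 3.94e-05).

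Genes of DNA replication and nucleotide supply fell in 17 of 44 cases and rose in 1, with a median of -0.19. Rrm2, the small subunit of ribonucleotide reductase, went from 157, 174 and 166 to 83.8, 79.2 and 98.9 CPM (log2 fold change -0.93, SE 0.11, adjusted p = 4.06e-07). Mcm2, a subunit of the replicative helicase, went from 186, 167 and 166 to 84.5, 92.6 and 119.8 CPM (log2 fold change -0.81, SE 0.12, adjusted p = 8.41e-06). Pold2, a subunit of DNA polymerase delta, went from 59.5, 49.9 and 67.2 to 31.7, 31.7 and 33.4 CPM (log2 fold change -0.87, SE 0.13, adjusted p = 1.87e-05). The groups did not overlap in any of the 3. Dut, the dUTPase, fell (log2 fold change -0.74, adjusted p = 4.32e-05). Among E2F factors and Rb, 3 of 7 genes fell and 1 rose. The activator E2f1 fell (log2 fold change -0.61, adjusted p = 0.00201). The repressor E2f8 went from 42.4, 34.4 and 45.3 to 17.03, 22.5 and 28.8 CPM (log2 fold change -0.84, SE 0.16, adjusted p = 0.000334). Rb1, the retinoblastoma gene, rose from 7.73, 6.41 and 12.96 to 18.7, 22.2 and 21.7 CPM (log2 fold change 1.20, SE 0.23, adjusted p = 0.000242).

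**Figure D4:**
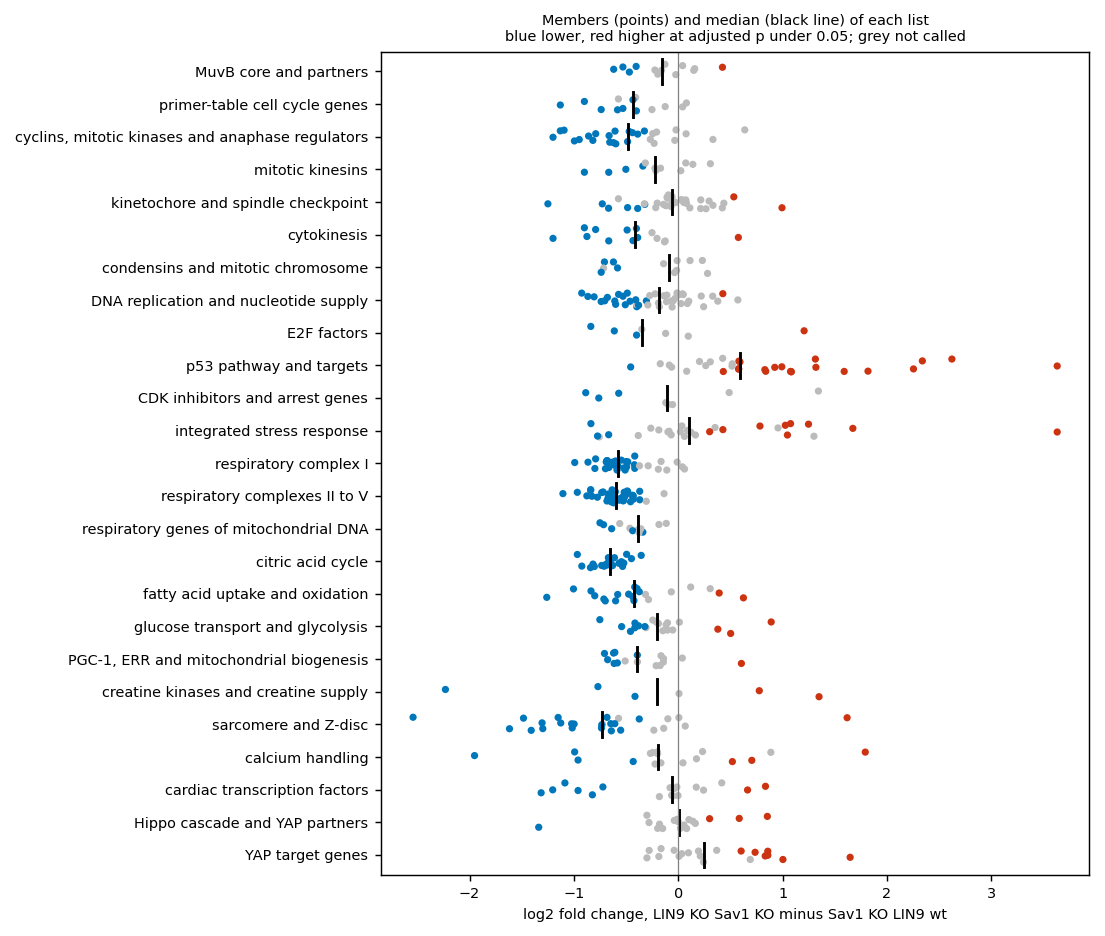
Log2 fold change of double knockout against Sav1 KO LIN9 wt for each tested member of 25 gene lists, 1 point per gene, with the list's median as a black line. Blue and red points are called lower and higher, and grey points are not called. All 22 genes of the citric acid cycle are blue, between -0.97 and -0.36, and 20 of the 31 genes of the p53 pathway are red.

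Genes of the p53 pathway, which answers DNA damage and other stress, rose: 20 of 31 were called higher (beside 11.8% of all genes) and 1, the desmosome-associated gene Perp, lower (log2 fold change -0.46, adjusted p = 0.00077), with a median of 0.59. Cdkn1a (chr17:29090976-29100727, + strand, ENSMUSG00000023067), which encodes the CDK inhibitor p21, was at 32.3, 32.1 and 37.5 CPM in Sav1 KO LIN9 wt and 162, 147 and 177 CPM in double knockouts. The means were 33.9 ± 3.08 and 162 ± 14.99 (± SD, n = 3), a 4.77-fold increase (log2 fold change 2.25, SE 0.12, adjusted p = 8.46e-14). The lowest double knockout stood far above the highest library of the other group. Eda2r, a receptor of the TNF receptor family, went from 12.4, 11.8 and 6.14 to 64.4, 62.6 and 60.8 CPM (log2 fold change 2.62, SE 0.19, adjusted p = 1.55e-10). Pmaip1, which encodes the pro-apoptotic protein NOXA, went from 3.70, 4.39 and 4.77 to 29.3, 20.8 and 15.3 CPM (log2 fold change 2.34, SE 0.27, adjusted p = 2.11e-07). Mdm2, the ubiquitin ligase of p53, rose less (log2 fold change 0.58, adjusted p = 0.000105), and Trp53 itself was not called (log2 fold change -0.06, adjusted p = 0.741).

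Gdf15, a secreted stress cytokine that also stands on the list of the integrated stress response, was at 1.35, 1.35 and 1.36 CPM against 15.7, 17.9 and 18.1 CPM (log2 fold change 3.63, SE 0.34, adjusted p = 5.49e-09). Its fold rests on 12 counts in the 3 Sav1 KO LIN9 wt libraries together. Of 28 genes of the integrated stress response, 9 rose and 3 fell (median 0.10), of which the share that fell is near the 11.6% of all genes. The increases held Trib3, a pseudokinase induced by ATF4 (log2 fold change 1.67, adjusted p = 0.000549), the hormone gene Stc2 (log2 fold change 1.25, adjusted p = 3.85e-06) and Sesn2 (log2 fold change 1.07, adjusted p = 7.1e-05). Atf4 itself was not called (log2 fold change 0.03, adjusted p = 0.861). Of 8 CDK inhibitor and arrest genes other than Cdkn1a, 3 fell and none rose. Cdkn2c was at 21.5, 25.3 and 21.8 against 10.9, 10.9 and 15.3 CPM (log2 fold change -0.89, SE 0.19, adjusted p = 0.00112), and the others were Cdkn2d (log2 fold change -0.76, adjusted p = 0.000749) and Cdkn1c (log2 fold change -0.57, adjusted p = 0.000421). Of the exonic bases of Cdkn1c, 30.7% lie under other genes, whose reads may count with it.

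In the heart muscle program, 19 of 27 genes of the sarcomere and Z-disc fell and 1 rose, with a median of -0.73. Ky (chr9:102505750-102546239, + strand, ENSMUSG00000035606), a protease of the muscle Z-disc, was at 10.4, 10.5 and 8.18 CPM against 2.38, 0.704 and 1.78 CPM, a 5.82-fold decrease (log2 fold change -2.54, SE 0.36, adjusted p = 6e-06). This was the largest decrease among genes of at least 5 CPM whose groups did not overlap. Myl2, the ventricular regulatory light chain, went from 4288, 3898 and 4147 CPM to 1789, 1356 and 1263 CPM. The means were 4111 ± 198 and 1469 ± 280.4 CPM (± SD, n = 3), which is a 2.80-fold decrease (log2 fold change -1.48, SE 0.12, adjusted p = 8.76e-10). Tcap, which anchors titin, was at 76.3, 74.2 and 72.6 against 24.5, 24.3 and 23.8 CPM (log2 fold change -1.62, SE 0.13, adjusted p = 4.31e-10), with the 3 libraries of each group close together. Myh7, the fetal ventricular myosin heavy chain, was at 7268, 6515 and 6642 against 2184, 3345 and 3662 CPM (log2 fold change -1.15, SE 0.21, adjusted p = 0.00325). Its level in double knockout 1 was below that in the other two, and all were lower than any Sav1 KO LIN9 wt library. Myom2, an M-band protein, moved the other way, from 15.1, 16.9 and 18.4 to 33.4, 59.1 and 62.6 CPM (log2 fold change 1.62, SE 0.20, adjusted p = 1.94e-06). The atrial light chains Myl7 and Myl4 were not called (log2 fold changes of 0.01 and -0.10, adjusted p = 0.988 and 0.519).

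Decreases outside the contractile apparatus included muscle metabolism and membranes. Ckm, the muscle creatine kinase (chr7:19404776-19422841, + strand, ENSMUSG00000030399), fell 4.70-fold, from 120.4, 127 and 119.7 CPM to 23.2, 28.9 and 25.96 CPM (log2 fold change -2.23, SE 0.14, adjusted p = 2.1e-12). Other isoforms rose. Ckmt2, a mitochondrial creatine kinase, was at 8.41, 8.10 and 7.84 against 21.1, 20.1 and 20.98 CPM (log2 fold change 1.35, SE 0.20, adjusted p = 1.41e-05), and the brain type Ckb was at 109.6, 102 and 111 against 169, 190.1 and 194 CPM (log2 fold change 0.78, SE 0.11, adjusted p = 3.35e-06). Mb, myoglobin, fell from 441, 373 and 447 to 109, 113 and 67.9 CPM (log2 fold change -2.12, SE 0.20, adjusted p = 1.35e-05), with 31.9% of its exonic bases under other genes. The lowest value was that of double knockout 3, and the other two stayed close together. Bves, a cAMP-binding membrane protein of muscle, was at 296, 319.6 and 322 against 80.7, 84.8 and 77.9 CPM (log2 fold change -1.94, SE 0.10, adjusted p = 1.09e-13). Prkag3, a regulatory subunit of AMPK, was at 15.5, 13.2 and 19.4 against 1.70, 4.22 and 3.56 CPM (log2 fold change -2.33, SE 0.32, adjusted p = 2.93e-06). Every double knockout was below every Sav1 KO LIN9 wt library in these 4 genes that fell. They belong to the 15 largest decreases, for which groups that do not overlap were a condition. The 15 largest decreases also held Ppp1r1b, Slc26a10, Gm13111, B4galnt1, Cacng6, Ptgds, Igfbpl1, Efnb3, Btnl9 and Ddc, at log2 fold changes of -2.49 to -1.76, with 20.7% of the exonic bases of B4galnt1 under other genes. Ddc, the aromatic amino acid decarboxylase, went from 139, 132 and 149 to 45.6, 38.7 and 39.1 CPM (log2 fold change -1.76, SE 0.12, adjusted p = 1e-11).

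Cardiac transcription factors did not move as 1 group. Of 18, 6 fell and 2 rose (median -0.06), of which the share that rose is near the 11.8% of all genes. Irx4, a ventricular homeobox factor, went from 110.0, 105 and 98.5 to 43.6, 46.5 and 35.9 CPM (log2 fold change -1.32, SE 0.14, adjusted p = 1.39e-07). Hand1, a factor of the left ventricle, went from 36.99, 26.3 and 26.9 to 12.6, 13.4 and 13.2 CPM (log2 fold change -1.20, SE 0.21, adjusted p = 0.000104). Myocd, the coactivator of SRF, went from 153, 159.6 and 165 to 77.3, 79.9 and 67.6 CPM (log2 fold change -1.09, SE 0.12, adjusted p = 5.95e-08). The groups did not overlap in these 3 genes. Prdm16, Hey2 and Nkx2-5 fell too, by 0.96, 0.82 and 0.72 on the log2 scale. With Mycn they are the 4 of 6 markers of compact myocardium that fell. Mycn was at 70.6, 66.8 and 66.8 CPM against 38.5, 29.6 and 29.5 CPM (log2 fold change -1.06, SE 0.14, adjusted p = 2.55e-06). Gata4, Tbx5, Tbx20 and Mef2c were not called (log2 fold changes -0.18, -0.01, -0.003 and -0.04). The genes that rose were Gata5 (log2 fold change 0.83, adjusted p = 0.000231) and Tbx2 (log2 fold change 0.66, adjusted p = 0.00635).

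Natriuretic peptide genes, which are active in the trabeculae of the embryonic ventricle, rose. Nppa was at 345, 244 and 380.1 CPM against 1238, 1393 and 1353 CPM, a 4.11-fold increase (log2 fold change 2.04, SE 0.14, adjusted p = 1.27e-09). Nppb was at 101, 105 and 125 against 402, 309.7 and 311 CPM (log2 fold change 1.63, SE 0.14, adjusted p = 1.33e-07). Of the exonic bases of Nppa, 61.5% lie under other genes. Bmp10, a growth factor of trabecular cardiomyocytes, rose from 125, 92.5 and 126 to 242, 303 and 271 CPM (log2 fold change 1.25, SE 0.14, adjusted p = 2.25e-06). Irx3, a trabecular homeobox factor, fell from 22.2, 17.9 and 19.1 to 11.9, 6.69 and 9.60 CPM (log2 fold change -1.06, SE 0.21, adjusted p = 0.000389). In all, 4 of 8 trabecular markers rose and 2 fell. Of 17 calcium handling genes 3 rose and 4 fell (median -0.20), beside 11.8% higher and 11.6% lower among all genes tested. Atp2a2, the calcium pump SERCA2, was at 1840.2, 1806 and 1834 against 709.8, 941 and 1101 CPM (log2 fold change -0.99, SE 0.12, adjusted p = 4.37e-07). Jph2, which holds the membrane junctions for calcium release, fell (log2 fold change -0.96, adjusted p = 4.96e-08). Sln, which encodes sarcolipin, an inhibitor of that pump, was at 3.03, 3.37 and 7.50 against 8.86, 17.9 and 21.7 CPM (log2 fold change 1.79, SE 0.46, adjusted p = 0.0148). The call of Sln was lost without Sav1 KO LIN9 wt library 1 or 2 (adjusted p = 0.0698 and 0.0701) and without double knockout 2 (0.0578).

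Genes of mitochondrial metabolism fell in large part. All 22 genes of the citric acid cycle fell, between -0.97 and -0.36 with a median of -0.66, as did 38 of 40 genes of respiratory complexes II to V (median -0.60) and 27 of 35 of complex I (median -0.58), with none higher. Sdha, Sdhb, Sdhc and Sdhd are counted both in the citric acid cycle and in complexes II to V. Cyc1, cytochrome c1 of complex III, was at 393, 398 and 393 CPM against 183, 172 and 195 CPM (log2 fold change -1.11, SE 0.11, adjusted p = 2.12e-08). Sdhc, a membrane subunit of complex II, was at 273, 224 and 251 against 127, 123 and 133 CPM (log2 fold change -0.97, SE 0.10, adjusted p = 7.17e-08). Idh3a, a subunit of isocitrate dehydrogenase, was at 401, 385 and 411 against 209.8, 199.9 and 220.5 CPM (log2 fold change -0.93, SE 0.10, adjusted p = 5.97e-08). The libraries of each group lay close together in all 3 genes. Ogdh and Suclg2 of the citric acid cycle, Atp5g1 and Atp5g3 of the ATP synthase and Ndufb10, Ndufs7, Ndufb7 and Ndufs6 of complex I fell by -0.99 to -0.79 on the log2 scale. Among genes of at least 5 CPM, short ones were called lower more often than long ones: of 2170 genes with an exonic length under 2 kb, 19.8% were called lower and 7.47% higher (median -0.17), and of 1287 over 10 kb, 9.01% and 18.7% (median 0.13). The part of transcript length in these results was not tested. Of 21 genes of fatty acid uptake and oxidation 14 fell and 2 rose (median -0.43). Eci1, an enoyl-CoA isomerase, fell 2.40-fold from 112, 97.5 and 110.1 to 42.6, 46.8 and 44.1 CPM (log2 fold change -1.26, SE 0.12, adjusted p = 4.31e-09), and Acaa2, Acsl1 and Acadm changed by -1.005, -0.84 and -0.80, while the uptake genes Cd36 and Slc27a1 rose (log2 fold changes of 0.39 and 0.62, adjusted p = 0.00361 and 0.00175).

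Respiratory genes of mitochondrial DNA overlapped between groups in their summed level. It was 41100 to 47200 CPM in Sav1 KO LIN9 wt and 41360, 29250 and 35270 CPM in double knockouts 1, 2 and 3. Of these 13 genes, 5 fell (median -0.38). Of these, mt-Nd2 was at 2589, 3019 and 2952 CPM against 1964, 1247 and 1875 CPM (log2 fold change -0.75, SE 0.16, adjusted p = 0.00387), with double knockout 2 lowest and no overlap between groups, and mt-Nd1 and mt-Nd3 had log2 fold changes of -0.72 and -0.64. Of 16 genes of the PGC-1 and ERR system, which controls the making of mitochondria, 7 fell and 1 rose (median -0.39). Ppargc1a, which encodes PGC-1 alpha, was at 146, 132 and 169 against 82.1, 109 and 88.5 CPM (log2 fold change -0.68, SE 0.15, adjusted p = 0.00229). The mitochondrial RNA polymerase gene Polrmt fell (log2 fold change -0.71, adjusted p = 0.00214), as did the coactivator gene Pprc1 (log2 fold change -0.62, adjusted p = 0.000742). Of 21 genes of glucose transport and glycolysis, 3 rose and 7 fell (median -0.21), of which the share that rose is near the 11.8% of all genes (11.6% fell). Slc2a3, the glucose transporter GLUT3, was at 52.8, 54.3 and 49.8 against 73.6, 126 and 91.03 CPM (log2 fold change 0.89, SE 0.18, adjusted p = 0.00201). Pgam2, the muscle phosphoglycerate mutase, fell (log2 fold change -0.75, adjusted p = 3e-06), and so did Ldhb, a lactate dehydrogenase subunit (log2 fold change -0.54, adjusted p = 7.18e-05).

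In the Hippo pathway, 3 of 18 genes of the kinase cascade and of YAP's partners rose and 1 fell (median 0.01). These small counts stand beside 11.8% higher and 11.6% lower among all genes tested and are not read as a shift. Of 21 YAP target genes, 8 rose and none fell (median 0.24). Myof, a membrane repair protein, went from 24.6, 30.4 and 22.5 to 61.7, 85.2 and 96.01 CPM (log2 fold change 1.65, SE 0.16, adjusted p = 1.33e-08). Axl, a receptor tyrosine kinase, went from 89.1, 86.7 and 90.7 to 150.2, 188 and 196 CPM (log2 fold change 1.002, SE 0.11, adjusted p = 8.91e-08). The matricellular genes Ctgf and Cyr61 were at 81.4, 80.99 and 84.9 against 135, 111 and 166 CPM and at 64.6, 64.1 and 62.7 against 88.6, 98.2 and 104 CPM (edgeR adjusted p = 0.0005 and 0.000948). All 4 were higher in each double knockout, and 23.2% of the exonic bases of Ctgf lie under other genes. Crim1, another target, rose (log2 fold change 0.86, adjusted p = 0.000121), and so did Amot and Ptpn14, which bind YAP (log2 fold changes of 0.58 and 0.85). Fibroblasts, whose markers rose in the same libraries, also express Axl, Ctgf and Cyr61, and their part in this result was not tested. Amotl2, a YAP-binding angiomotin, was at 154, 137 and 132 against 109, 119.7 and 144 CPM (log2 fold change -0.19, SE 0.12, adjusted p = 0.263), with overlap. Among partners, Tead4, a DNA-binding partner of YAP, fell from 13.8, 16.53 and 16.7 to 4.77, 8.09 and 5.69 CPM (log2 fold change -1.34, SE 0.26, adjusted p = 0.000291), while Tead1, Tead2 and Tead3 were not called (log2 fold changes of -0.04, -0.15 and 0.08).

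The 15 largest increases held genes of several kinds, Gdf15 among them. Ermap, Kel, Hba-x, Hbb-y, Hbb-bh1 and Epb42 are genes of red blood cells. Ermap, a blood group protein, was at 1.68, 2.36 and 2.39 CPM in Sav1 KO LIN9 wt and 42.2, 25.7 and 20.98 CPM in double knockouts (log2 fold change 3.77, SE 0.62, adjusted p = 0.00224). Spp1, which encodes osteopontin, went from 4.37, 4.39 and 4.09 to 43.6, 40.5 and 44.4 CPM (log2 fold change 3.31, SE 0.20, adjusted p = 2.1e-12). Sost, which encodes the Wnt inhibitor sclerostin, went from 4.71, 5.06 and 6.14 to 49.05, 50.7 and 53.3 CPM (log2 fold change 3.26, SE 0.28, adjusted p = 4.35e-07). The libraries of a group lay close together in both. Hsd3b6, a steroid dehydrogenase, rose from 2.35, 3.71 and 4.77 to 50.4, 38.4 and 18.1 CPM (log2 fold change 3.29, SE 0.51, adjusted p = 0.00143), with double knockout 1 highest and 3 lowest, the order of the haemoglobin share. Ano3, of the anoctamin family, Uts2b, a urotensin peptide, and the channel subunit genes Dpp6 and Scn3b rose by 3.40, 3.30, 2.93 and 2.90 on the log2 scale. Scn3b rests on 13 counts in the Sav1 KO LIN9 wt libraries.

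With 1 library left out, 69.7% to 81.7% of the 4132 called genes kept their call. Losses are given by gene only for genes of the naming rule, not for every called list member. Those that lost the call and are not described above were as follows, with the highest adjusted p (edgeR). The mitotic kinesin gene Kif2c (-0.34, up to 0.17) and Smtn (up to 0.186) lost it without most single libraries and in DESeq2. Kif2c also lost its call with no filter (0.0601) and with the replicate block in the 6 libraries alone (0.0507). Smtn lost its call with a mean count above 10 as well (0.0512). The YAP target Fjx1 (0.86, up to 0.155) lost it without any library but Sav1 KO LIN9 wt 1. Hk2, a hexokinase (0.50, up to 0.154), lost it without any but double knockout 1, and mt-Cytb (-0.44, up to 0.142) likewise. With the replicate block in the fit of 12 libraries, Hk2 lost its call too (0.0514). Tfb1m, a mitochondrial rRNA methyltransferase (-0.62, up to 0.119), lost it without Sav1 KO LIN9 wt 2 or 3 or double knockout 1 or 3. Wwtr1, which encodes TAZ (0.30, up to 0.225), lost it without Sav1 KO LIN9 wt 3 or double knockout 1 or 2. Fjx1, Tfb1m and Wwtr1 also lost it in DESeq2 (adjusted p = 0.0791, 0.0862 and 0.0614). The repressor E2f6 (-0.40, up to 0.0873) lost it without Sav1 KO LIN9 wt 3 or double knockout 2, and Gamt, of creatine synthesis (-0.77, up to 0.0947), without Sav1 KO LIN9 wt 1 or double knockout 2.

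To see whether these changes differed from those that loss of LIN9 made with wild-type Sav1, the effect was set beside that in the 6 other libraries of the experiment, which share no sample with it, and beside the first experiment. With wild-type Sav1, 4103 of the same 17675 genes were called (23.2%, with 12.7% higher and 10.5% lower), and in the first experiment 4131 of 19752 (20.9%, with 11.1% higher and 9.78% lower). The libraries of the first experiment were deeper, at 9485599 to 9615274 counts, and were fitted on their own, so its counts of calls are not on equal terms. Of the genes that rose in Sav1 KO, 1398 also rose with Sav1 wt (67.3% of 2078 and 62.1% of 2252), and of those that fell, 1246 also fell (60.7% of 2054 and 67.3% of 1851). Genes that moved the same way in all 3 comparisons were 1142 higher and 976 lower. Over 12394 genes of at least 5 CPM, the log2 fold changes in both Sav1 genotypes had a Pearson's correlation of 0.815 and a Spearman's correlation of 0.771 as a description across genes, which are not independent, and 78.4% had the same sign.

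A test of the difference itself, the interaction of Lin9 and Sav1 genotype, called 0 of 17675 genes in edgeR and 0 in DESeq2, with 1153 (6.52%) at an unadjusted p under 0.05 in edgeR and 524 in DESeq2. Without LIN9 KO Sav1 wt library 3 it called 64 genes, of which 32 are among the 34 genes that vary with Rn18s-rs5. The 5 genes with the smallest p are given as values. Slit2, a guidance factor of the trabecular list, was at 195, 170.4 and 179 CPM against 270.1, 325 and 324 CPM in Sav1 KO and at 244, 308 and 288 CPM and 276, 299.9 and 287 CPM with Sav1 wt (interaction 0.72, SE 0.15, unadjusted p = 3.62e-05, adjusted p = 0.44 in edgeR). Itga3, an integrin subunit, was at 50.4, 48.9 and 48.1 against 31.3, 35.9 and 40.9 CPM in Sav1 KO and 35.5, 34.9 and 36.6 against 50.9, 51.1 and 41.7 CPM with Sav1 wt. It was called lower in the first (log2 fold change -0.45, adjusted p = 0.0127) and higher in the second (log2 fold change 0.43, adjusted p = 0.0175). The interaction failed the correction (-0.88, adjusted p = 0.44), and without double knockout 1 its call in Sav1 KO was lost (adjusted p = 0.0668). It was the only gene called in opposite directions in both Sav1 genotypes. Pcca, Gm8349 and 2310022B05Rik had log2 fold changes of 0.14, -0.77 and -0.39 in Sav1 KO and -0.87, 0.43 and 0.23 with Sav1 wt (edgeR interaction, adjusted p = 0.482, 0.44 and 0.44).

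**Figure D5:**
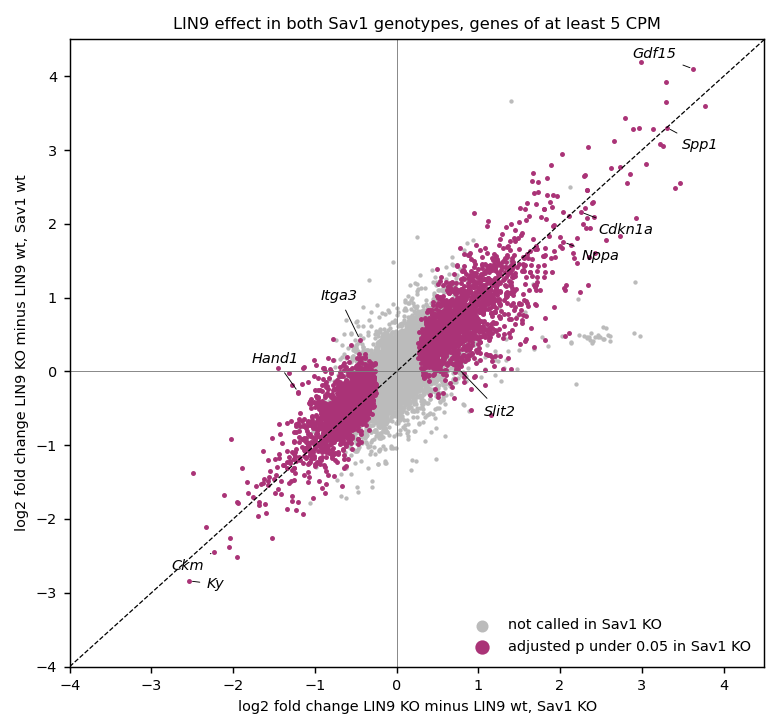
Log2 fold change of LIN9 KO against LIN9 wt in Sav1 KO (horizontal) and in Sav1 wt ventricles (vertical) for genes of at least 5 CPM, 1 point per gene, with genes called in Sav1 KO in purple and others in grey. The dashed line marks equal changes. Gdf15, Spp1, Cdkn1a and Nppa lie high and Ky and Ckm low on both axes, while Itga3 has opposite signs, and the grey points near 2.5 on the horizontal axis are genes that vary with the 18S rRNA copy Rn18s-rs5.

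Several groups had different counts in the Sav1 genotypes, and no interaction was called for any of their members. Of the 27 cyclins, kinases and anaphase regulators, 18 fell in Sav1 KO (median -0.49) and 12 with Sav1 wt (median -0.30), and 7 of the 27 had an unadjusted interaction p under 0.05. Cdc20 changed by -0.996 and -0.48 (interaction adjusted p = 0.68), Plk1 by -1.20 and -0.64, and Foxm1 by -0.53 and -0.13. Of 14 cytokinesis genes, 9 fell in Sav1 KO (median -0.42) and 6 with Sav1 wt (median -0.17). Of the 13 primer genes, 7 and 5 fell (medians -0.43 and -0.39). The lists of kinesins (-0.22 and -0.32), condensins (-0.09 and -0.16) and kinetochore genes (-0.06 and -0.12) had the smaller median decrease in Sav1 KO. Cenpf (-0.57 and -1.01) and Aspm (-0.41 and -0.67) also changed less in Sav1 KO. In replication genes the counts that fell were 17 and 9 of 44. Hand1 changed by -1.20 in Sav1 KO and -0.28 with Sav1 wt (interaction adjusted p = 0.68). Respiratory genes of mitochondrial DNA fell in 5 of 13 cases in Sav1 KO and in 13 of 13 with Sav1 wt (medians -0.38 and -0.86). Of 21 genes of glucose transport and glycolysis, 3 rose and 7 fell in Sav1 KO (median -0.21), and 5 rose and 3 fell with Sav1 wt (median 0.03), with 8 of the 21 at an unadjusted interaction p under 0.05. Of 8 CDK inhibitor and arrest genes, none rose and 3 fell in Sav1 KO (median -0.11), and 5 rose and 3 fell with Sav1 wt (median 0.43), with 3 of the 8 at such a p. The counts were alike for the citric acid cycle (22 and 22 of 22, median -0.66 in both), sarcomere genes (19 and 20 of 27 lower) and the p53 pathway (20 and 21 of 31 higher), and Cdkn1a changed by 2.25 and 2.16, and by 2.08 in the first experiment.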

How the data were processed

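RNA was prepared from heart ventricles with poly-A selection and sequenced on an Illumina NextSeq. The authors mapped reads with TopHat2 (2.1.0) and Bowtie2 to mm10, reduced each sample to the smallest number of mappable reads and counted reads per gene, and the deposited values are these raw counts per Ensembl gene. The overlap mode and strandedness of counting are not given in the sources used here. The deposited log2 fold changes and p-values, the authors' own comparisons, were not used, and 0 columns of per-sample values were left unused. ChIP-seq samples (4) were not used here. Total counts per library were 2840053 to 2974933, which limits genes of few counts.

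Scaling was by TMM, and the quasi-likelihood test of edgeR was run with robust estimates (edgeR 4.0.16, R 4.3.3), with all 12 libraries of 4 genotypes in 1 fit, on genes with a mean count above 1. P-values were adjusted by Benjamini-Hochberg over all genes tested (threshold 0.05), and the SE of a log2 fold change was taken from its F statistic. The first experiment was fitted on its own. The script was tested on simulated data. Alternatives were DESeq2 (1.42.0), other scalings and filters, a replicate block and leaving out each library. Positions and exonic lengths are from GENCODE M21 (mm10). The members and lists were chosen with earlier results of these data known.

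The rule for named genes gave Lin9, Sav1, Yap1, Cdc20, Amotl2 and the genes with primers in the study. It also gave the 15 largest increases and decreases among called genes with at least 5 CPM and groups that do not overlap, up to 4 called genes per list with the largest change, and the 5 smallest interaction p-values. Further list members were named after their values had been seen. Of the genes given by this rule, 1 is not reported here.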

Additional observations from a re-analysis of the deposited data

How the results depend on the processing

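The number of genes called in Sav1 KO ventricles (4132) was 4129 to 4142 under other scalings, 4420 with no filter, 4011 with a mean count above 10, 5052 in a fit of the 6 libraries alone and 3046 in DESeq2. It was 2960 to 3776 when 1 library was left out, and no call of the 4132 changed sign under these alternatives. Same-numbered libraries of the groups did not deviate together (correlations of -0.0566, -0.0209 and -0.0584 over 12400 genes), so the numbers do not pair them. With Sav1 wt the correlations were 0.64, 0.258 and 0.339, but libraries 2 and 3 correlated across numbers as well (0.295 and 0.241), so library 1 stands apart and a pairing of 2 and 3 by number is not shown. With the replicate block 4487 genes were called in Sav1 KO, 4895 with the block in the 6 libraries alone, 4367 in Sav1 wt, 5001 in the first experiment and 0 for the interaction. The interaction gave 17 genes with no filter, and 0 to 64 genes when 1 library was left out, with 64 without LIN9 KO Sav1 wt replicate 3, of which 32 follow Rn18s-rs5, and 2 without LIN9 wt Sav1 wt replicate 1. The cause of the other changes was not tested. In Sav1 wt the count was 3040 to 4120 and in the first experiment 2732 to 4238 when 1 library was left out, the lowest in the first experiment without LIN9 wt replicate 3. Of the 154 called genes given by the naming rule, 15 lost the call under at least 1 alternative and none reversed. Among genes not called, the sign changed when 1 library was left out for Casc5, Lin37, Lin52, Lin9, Mybl2 and Sav1. Leaving out 1 library gave ranges for the log2 fold change of -0.13 to 0.25 in Casc5, -0.20 to 0.19 in Lin37, -0.26 to 0.036 in Lin52, -0.33 to 0.019 in Lin9, -0.0899 to 0.11 in Mybl2 and -0.028 to 0.10 in Sav1. The genes that follow Rn18s-rs5 were left out of scaling as an alternative chosen after seeing the data (4137 calls). List medians moved by less than the spread between libraries in 495 of 525 values, and several small ones ranged widely over all alternatives: -0.16 to 0.25 for atrial markers (0.06), -0.20 to -0.06 for calcium handling (-0.20), -0.18 to -0.0069 for cardiac transcription factors (-0.06), -0.33 to -0.09 for CDK inhibitors (-0.11), -0.20 to -0.08 for MuvB (-0.16), -0.16 to -0.05 for condensins (-0.09), -0.10 to -0.02 for kinetochore genes (-0.06), -0.38 to -0.23 for E2F factors (-0.35), 0.38 to 0.78 for trabecular markers (0.41), -0.09 to 0.19 for smooth muscle markers (0.07) and -0.03 to 0.04 for the Hippo cascade (0.01). At 0.341 CPM per count, genes such as Gdf15 and Scn3b rest on 12 and 13 counts in Sav1 KO LIN9 wt.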

Other observations

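A further set of genes, chosen after their values were seen, was higher in every double knockout without being called. These are the 34 genes, Rn18s-rs5 among them, whose log2 CPM followed that of the 18S ribosomal RNA copy Rn18s-rs5 over the 12 libraries with r of at least 0.95. Their log2 fold changes in Sav1 KO were 1.20 to 2.98. In a fit of the 6 Sav1 KO libraries alone, all 34 were called higher, against 0 in the fit of 12 libraries. Since they were chosen to follow Rn18s-rs5 in these same libraries, this is a shared pattern and not 34 separate results. Together they took 0.705% to 0.955% of counts in Sav1 KO LIN9 wt, and 2.52%, 4.5% and 4.28% in double knockouts 1, 2 and 3. Lars2 was at 555, 596 and 808 CPM against 2212, 4234 and 4317 CPM, Cdk8 at 389, 403 and 556 against 1512, 2826 and 2727 CPM, and Jarid2 at 351, 407 and 532 against 1340, 2552 and 2593 CPM. Their values are reads assigned to these genes, and whether the reads come from the genes' own transcripts was not tested. Rn18s-rs5 also varied within a group with wild-type Sav1: its share in the 3 LIN9 KO libraries there was 0.0838%, 0.118% and 1.94%, against 0.448%, 0.494% and 0.648% in LIN9 wt, so that 2 of the 3 LIN9 KO libraries lay below all LIN9 wt libraries, unlike in Sav1 KO. Without the third of these, 32 of the 34 genes were called for the interaction of Lin9 and Sav1 genotype.

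Among genes of at least 5 CPM, the double knockouts differed among themselves by transcript length. In double knockout 1, genes with an exonic length under 2 kb were at a median of 0.10 above the group mean (log2) and those over 10 kb at -0.08, whereas the Sav1 KO LIN9 wt libraries stayed between -0.02 and 0.02 in all length classes.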
